A study of Mus musculus with 2 samples.

Results

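The translation initiation factors (eIFs) and elongation factors (eEFs) were described in individual mouse muscle stem cells. The set held every protein-coding gene whose symbol begins with Eif or Eef followed by a digit, found through the Ensembl identifiers of both deposited count tables. Pseudogene symbols ending in -ps, 7 in all, were left out. The rule used no measured value and found 60 genes among 21216 gene identifiers, of which 12846 were protein-coding. Both tables had a row for 59 of the 60.

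Initiation factors bring the initiator tRNA, the small ribosomal subunit and the messenger RNA together, and elongation factors then deliver aminoacyl-tRNAs and move the ribosome along the message. eIF2 carries the initiator tRNA, eIF2B reloads eIF2 with GTP, eIF3 is a large scaffold on the small subunit, and the eIF4 proteins bind the cap and unwind the leader of the message. Muscle stem cells rest in a quiescent state in adult muscle, in which protein synthesis is held low in part through phosphorylation of eIF2, and leave that state when they are placed in culture.

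Single cells were placed in wells by flow sorting, and a modified CEL-Seq2 protocol, which reads the 3′ ends of polyadenylated transcripts, counted their RNA. Plate 1 held freshly isolated cells, which the labels call quiescent, and cells cultured for 96 h at a glucose concentration of 25 mM, termed high glucose. Plate 2 held 96 h cultures at a glucose concentration of 5 mM, termed low glucose, and cultures given 10 mM galactose instead. Every culture medium also had pyruvate, fetal bovine and horse serum, chick embryo extract and the growth factor bFGF. No genotype, sex, age or number of animals was given in the sources used here. Each condition filled 6 plate rows of its own, and each plate was 1 sequencing library, so that there was 1 library per condition.

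The conditions held 102 (freshly isolated), 113 (high glucose), 120 (low glucose) and 121 (galactose) kept wells. Their median gene counts per cell were 2536, 6747, 13371 and 14496, and the pools of all cells held 284109, 887611, 1734279 and 2035682 counts. Gene counts per spike-in count were 19.6, 60.2, 50.4 and 51.9. Of 257 well barcode sequences, 200 were used on both plates, each plate being a library of its own. All 8 muscle stem cell markers were counted in every condition, with a summed level of 6050 CPM (counts per 1000000 gene counts) before and 1924 to 2068 CPM after culture. Endothelial markers (6 of 6 found) summed to at most 81.0 CPM and mature myofibre markers (2 of 5) to at most 31.7 CPM in any condition. Those of glia (2 of 4), tenocytes (2 of 3) and immune cells (2 of 5) summed to at most 17.6, 10.4 and 8.84 CPM. Low sums over 2 markers do not show that a cell type was absent. Markers of other cell types were also counted in plate 1, where 12 freshly isolated and 8 high glucose wells had counts for at least 3 markers of a single such type, against 1 well in each condition of plate 2. Immune, glial, tenocyte and myofibre markers could not reach 3 in a well, as only 2 of each were found. The well counts thus cover fibro-adipogenic, endothelial, and smooth muscle and pericyte markers only.

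Counts were summed over the cells of a condition and divided by the pool's total, giving CPM. A ratio of 2 pools carries an exact 95% interval and a single CPM an exact Poisson interval. These intervals cover counting error only, since cells are not replicates, and no test between conditions was run. A gene was called higher or lower when the ratio of CPM was at least 1.5 in that direction and the mean of both pools was at least 50 CPM. The spread over the 6 plate rows of a condition is given as its lowest and highest row. These rows are parts of 1 library and not replicates, so rows without overlap are a description only. CPM were not divided by transcript length. Levels of different genes are compared only as the shares of related genes.

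Many messages that encode translation machinery begin with a pyrimidine run at the start of transcription, which links their translation to mTORC1. The windows below hold the 15 bases before and the 15 bases from the annotated start of 7 genes of the set. They come from RefSeq on GRCm38.p6 and are written 5′ to 3′ on the gene's strand. Capitals mark the longest run of C and T in the window.
Eef1a1 (chr9:78481710-78481739, minus strand): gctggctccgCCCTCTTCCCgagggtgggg
Eef2 (chr10:81176616-81176645, plus strand): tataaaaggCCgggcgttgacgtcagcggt
Eif2s3x (chrX:94212637-94212666, minus strand): ctgccgagcaTTTTCCTTTTCTCTCCgagc
Eif3c (chr7:126566352-126566381, minus strand): CTCacctgctcagagggactcggcagctta
Eif3d (chr15:77970810-77970839, minus strand): gtggtagggccaTTTacgacagcgctggtc
Eif3f (chr7:108934400-108934429, plus strand): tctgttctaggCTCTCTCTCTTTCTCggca
Eif3l (chr15:79075208-79075237, plus strand): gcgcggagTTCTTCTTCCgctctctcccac
The longest run was 10 bases in Eef1a1, 16 in Eif2s3x, 15 in Eif3f and 10 in Eif3l, and 3 or fewer in Eef2, Eif3c and Eif3d. These 7 genes do not stand for the set. In windows not printed here, the longest run was 6 bases in Eif3m and Eif4g1, 3 in Eif5a and 2 in Eif5. RefSeq windows were at hand for 46 of the 60 genes. A run of at least 8 pyrimidines lay in 12 of their 60 windows, belonging to 10 genes, against 12.0% of 32851 windows of all genes. The motif CACGTG, which reads the same on both strands and is the E-box bound by Myc, lay within the 300 bases around the start in 13 of the 60 windows, belonging to 11 genes that included Eef2, Eif5a, Eif4a1, Eif4g1 and Eif3f, against 7.15% of all windows. A match is a description of letters and not a binding site. The starts are annotated and were not measured in these cells, so a short run does not show that a message lacks a longer one.

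The 60 genes together took 1.81% of the gene counts of freshly isolated cells (95% interval 1.76 to 1.86%). The share was 2.31% for high glucose (2.28 to 2.34%), 2.35% for low glucose (2.33 to 2.37%) and 2.34% for galactose (2.32 to 2.37%). The freshly isolated plate rows lay between 1.73 and 1.92% and the cultured rows between 2.24 and 2.46%, without overlap. The ratio of high glucose to freshly isolated cells was 1.28 (1.24 to 1.32), and that of galactose to low glucose 0.998 (0.985 to 1.01). Per 1000 spike-in counts, the summed genes gave 354.9 counts fresh and 1391, 1183 and 1216 counts in the 3 cultures. CPM thus describe a gene's part of the counted RNA, while the counted RNA per spike-in also differed between fresh and cultured cells.

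**Figure D1:**
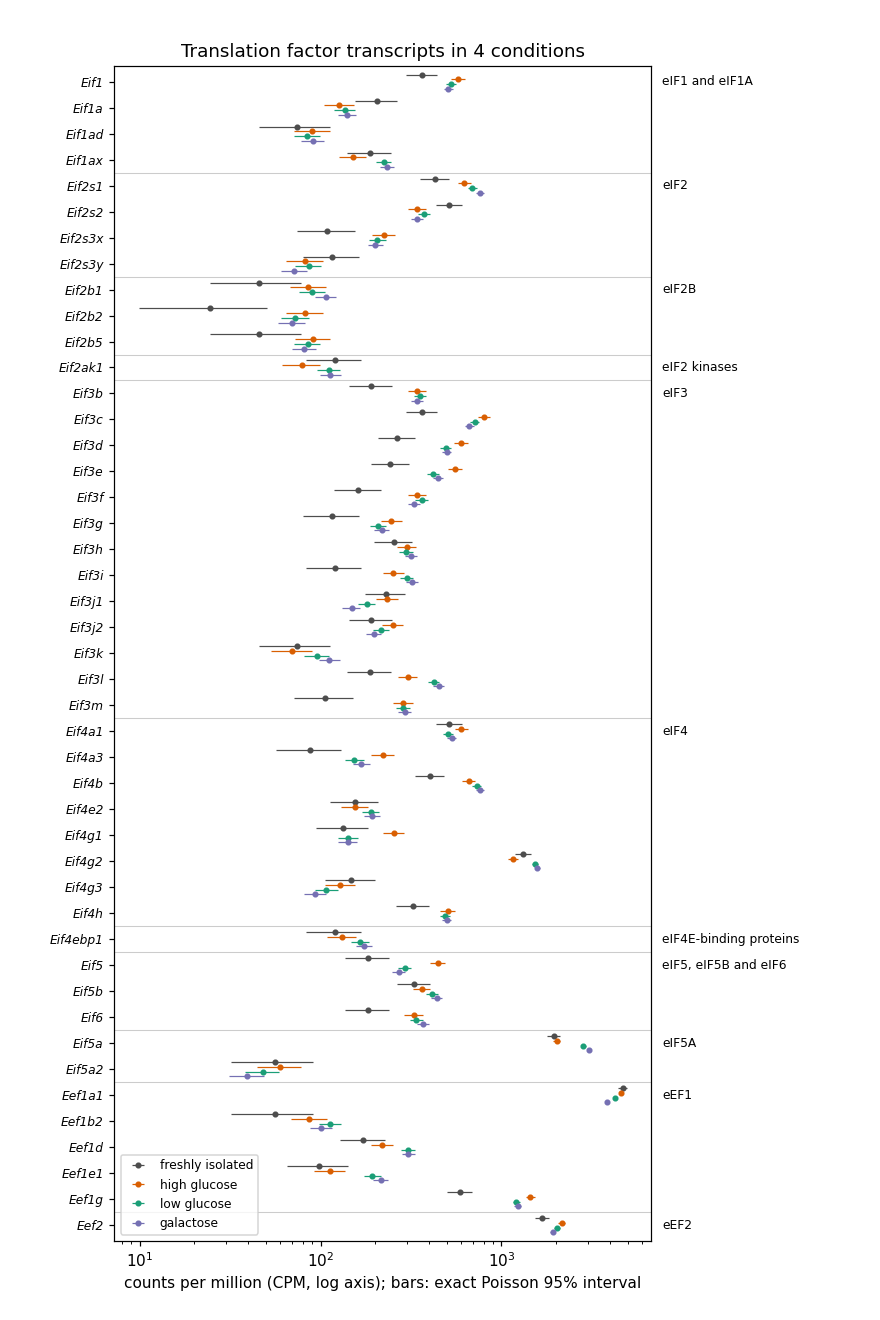
Levels of the 45 translation factor genes with a mean of at least 50 CPM in freshly isolated and high glucose cells. The x axis is CPM on a log axis, 1 colour per condition, bars are exact Poisson 95% intervals of the pool, and genes are grouped by factor. The dark grey points (freshly isolated) of most eIF3 genes lie left of the coloured ones, and the 4 points of Eef1a1 lie close together near the right edge.

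Culture in high glucose was first compared with fresh isolation, within plate 1. Summed eIF3, with 9 of 13 genes called higher, summed eIF2B, Eef1g and Eif5 stood higher in high glucose. Eef1a1 and Eif5a lay near the same pooled CPM in both conditions, although the cell median of Eef1a1 was 0.458% fresh and 0.376% in high glucose. Of the 60 genes, 45 passed the minimum level: 22 of them were called higher, 3 lower and 20 neither. Among all 3848 genes that passed the same minimum, 33.9% were called higher and 20.1% lower. The median log2 ratio was 0.54 over the 45 members and 0.25 over all genes, a gap of 0.29. Without overlap of plate rows, 11 of the 45 members lay higher in high glucose and 0 lower, against 11.7% and 8.84% of all genes. Intervals left out 1 for 23 members that were higher and 3 that were lower, where 31.9% and 20.5% of all genes did so. Of the 45, 3 had a freshly isolated level under the minimum and passed it through the high glucose pool (Eif2b1, Eif2b2 and Eif2b5), so that their ratios could lie above 1 only, and nothing is read from their calls. Among members with both pools at or above the minimum, 19 of 42 were called higher and 3 lower, beside 26.6% and 16.4% of 2914 genes.

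The division into higher and lower calls moved with the scaling. It was 16 higher and 4 lower with TMM factors, 15 and 5 with median-of-ratios factors, 23 and 0 over a total of protein-coding genes, and 44 and 0 per spike-in count. The median of all genes moved by -0.25, -0.29, 0.10 and 1.59 (log2) in those 4 scalings. Such a factor moves all genes of a pool alike and so leaves the gap between the members' median and that of all genes nearly as it was; the gap was 0.24 after every cell was thinned to 1000 counts and 0.25 with at least 2000 counts per well. Summed markers of fibro-adipogenic cells were at 1091 CPM fresh and 135 CPM in high glucose (3 of 4 found markers counted in each pool, Dcn at 0 in both), and those of smooth muscle and pericytes at 616 and 229.8 CPM (6 of 6 counted). The 20 wells with at least 3 fibro-adipogenic, at least 3 endothelial, or at least 3 smooth muscle and pericyte markers were also left out. Without them, 22 members were called higher and 2 lower, but these were not all the same genes. Eef1b2 (ratio 1.25), Eif1a (0.669) and Eif2s2 (0.677) were then called neither, while Eif1ad (1.55) was called higher and Eif2s3y (0.655) lower. With every cell thinned to 1000 counts, which removes the difference in depth, 17 were called higher and 1 lower.

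**Figure D2:**
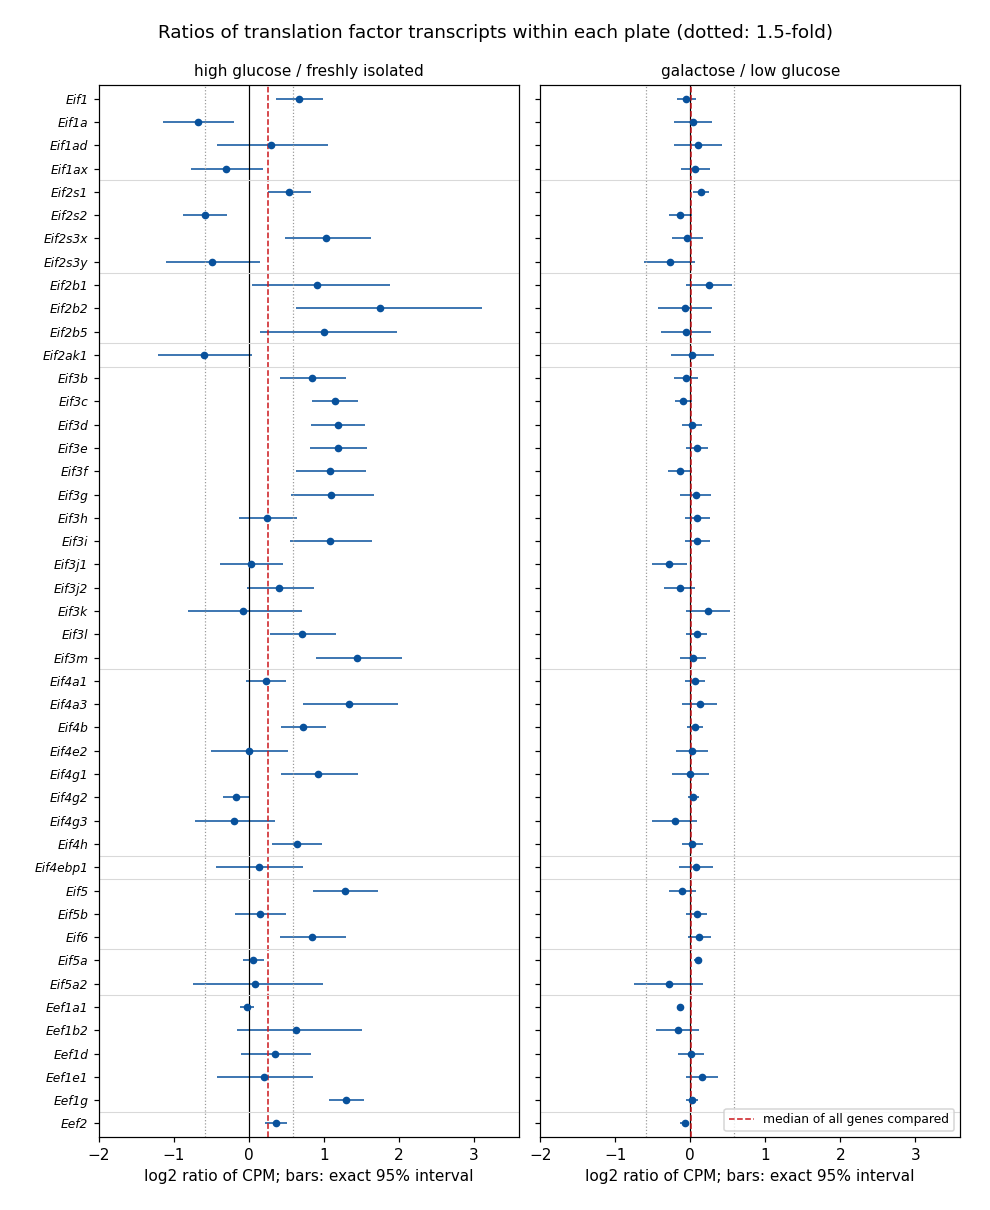
Ratios of CPM for the same 45 genes, on a log2 axis, for high glucose over freshly isolated cells (left) and galactose over low glucose (right). Bars are exact 95% intervals for counting error, the dashed line is the median of all genes compared, and dotted lines mark 1.5-fold; ratios run from 0.624 (Eif1a) to 3.34 (Eif2b2) on the left, and all points on the right lie within the 1.5-fold lines.

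Among the factors that scan for the start codon, Eif1, which guards start codon selection, was counted at 363 CPM fresh, 576 CPM in high glucose, and 527 and 508.9 CPM in the plate 2 cultures (low glucose and galactose, in this order throughout). Its high glucose to fresh ratio was 1.59 (1.28 to 1.98), with plate rows of 290.4 to 473 CPM before and 467 to 655 CPM after culture, which overlap. Eif1a, one of a pair of genes for eIF1A, was called lower: its levels were 204 CPM fresh, then 127 CPM in high glucose and 136 and 140.0 CPM on plate 2, for a ratio of 0.624 (0.450 to 0.871). Its fresh rows ran from 87.5 to 389 CPM and overlapped the high glucose rows, which ran from 84.8 to 157 CPM. Eif1ad and Eif1ax were called neither, at ratios of 1.22 (0.747 to 2.08) and 0.809 (0.585 to 1.13). Eif1b, a close relative of Eif1, lay under the minimum at 24.6 and 40.6 CPM.

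The 3 subunits of eIF2 did not move together. Eif2s1, the alpha subunit that stress kinases phosphorylate, was at 429 CPM fresh, 623 CPM in high glucose, and 691 and 761 CPM on plate 2. Its ratio of 1.45 (1.19 to 1.78) missed the fold of 1.5, yet its plate rows, 249.99 to 582 CPM fresh and 589 to 652 CPM in high glucose, did not overlap. Eif2s2, the beta subunit, went the other way, from 514 CPM fresh to 341 CPM in high glucose (ratio 0.664, 0.543 to 0.815) and 373 and 340.4 CPM on plate 2. Eif2s3x, the X-linked gamma subunit, stood at 109 and 223 CPM (2.04, 1.40 to 3.09), whereas its Y-linked counterpart Eif2s3y was counted at 116 and 82.2 CPM (0.708, 0.463 to 1.10). Summed over the 4 genes, eIF2 was at a ratio of 1.09 (0.961 to 1.23).

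All 5 subunits of eIF2B, the exchange factor for eIF2, had few counts in freshly isolated cells, 42 in sum, against 301 after high glucose culture. Their summed share went from 0.0148 to 0.0339% of gene counts, a ratio of 2.29 (1.66 to 3.25) over all 5 genes with no minimum level, and plate rows of 0.0103 to 0.0193% and 0.0266 to 0.0425% did not overlap. Eif2b2 stood at 24.6 CPM fresh and 82.2 CPM in high glucose (3.34, 1.54 to 8.59), Eif2b1 at 45.8 and 85.6 CPM (1.87, 1.03 to 3.67), and Eif2b5 at 45.8 and 91.3 CPM (1.99, 1.10 to 3.91). Eif2b3 and Eif2b4 remained under the minimum in this comparison. The eIF2 kinases, which put the brake on eIF2B through eIF2, were sparse. Eif2ak1, the heme-regulated kinase, was called lower at 119.7 and 78.9 CPM, with an interval that reached past 1 (0.659, 0.432 to 1.02). Eif2ak2, the kinase activated by double-stranded RNA, and Eif2ak4, the sensor of uncharged tRNA, had at most 21.1 CPM in any condition.

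eIF3 is the factor with the most genes in the set. Of its 14 genes, 13 passed the minimum. Of these, 9 were called higher (Eif3b, Eif3c, Eif3d, Eif3e, Eif3f, Eif3g, Eif3i, Eif3l and Eif3m) and 0 lower, beside 33.9% and 20.1% of all genes that passed. The median log2 ratio of the 13 was 1.07, beside 0.25 over all genes. Of the 9, 7 (all but Eif3g and Eif3l) had plate rows that did not overlap, against 11.7% of all genes higher by that rule. Summed, eIF3 took 0.252% of gene counts fresh (rows 0.217 to 0.274%), 0.460% in high glucose (0.440 to 0.498%), and 0.435 and 0.434% on plate 2. The summed ratio of high glucose to fresh was 1.82 (1.68 to 1.98). It was 1.53 with TMM factors, 1.49 with median-of-ratios factors, 5.59 per spike-in count, and 1.85 without the 20 marker wells. With every cell thinned to 1000 counts, the median log2 ratio of the 13 genes fell to 0.68, beside 0.20 over all genes. With at least 2000 counts per well it was 0.89, beside 0.25 over all genes.

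Within eIF3, the core subunits b, g and i, which sit near the mRNA entry, were counted as follows. Eif3b was at 190.1 CPM fresh and 340.2 in high glucose (1.79, 1.34 to 2.44), Eif3g at 116 and 246.7 (2.12, 1.47 to 3.16), and Eif3i at 119.7 and 252 (2.11, 1.47 to 3.12). Eif3c, part of the structural core, had 363 CPM fresh, 799 CPM in high glucose and 711 and 666 CPM on plate 2, and its fresh rows ended at 507 CPM where the high glucose rows began at 672. The ratio was 2.20 (1.79 to 2.74). Eif3d, a subunit that can itself bind caps of some messages, went from 264 to 599 CPM (2.27, 1.78 to 2.93) and had 491 and 497 CPM on plate 2.

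The octamer subunits e, f, l and m stood likewise higher. Eif3m had the highest ratio in the complex, 2.71 (1.85 to 4.10), from 105.6 to 286 CPM, with 285 and 292 CPM on plate 2. Eif3e went from 243 to 552 CPM (2.27, 1.76 to 2.97), Eif3f from 162 to 341 CPM (2.11, 1.54 to 2.94) and Eif3l from 187 to 304 CPM (1.63, 1.21 to 2.23). Eif3h, Eif3j1, Eif3j2 and Eif3k were called neither, with ratios of 1.18, 1.02, 1.32 and 0.945, whose intervals all held 1. Eif3a, the largest subunit, was below the minimum at 28.2 CPM fresh, 24.8 CPM in high glucose, and 12.7 and 8.84 CPM on plate 2. The difference in ratio between subunits was not tested.

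The eIF4 group, which reads the cap and unwinds the leader, split by gene. Eif4b, the RNA-binding helper of the helicase eIF4A, had 401 CPM fresh, 661 CPM in high glucose, and 729 and 761 CPM on plate 2. Its rows ended at 502 CPM fresh and began at 616 CPM in high glucose (ratio 1.65, 1.35 to 2.03). Eif4h, a relative of Eif4b, was at 324 and 504 CPM (1.56, 1.24 to 1.97). Eif4a1, the main cytosolic helicase, was called neither at 514 and 600.5 CPM (1.17, 0.971 to 1.41), while Eif4a3, a helicase of the exon junction complex, was called higher at 88.0 and 220.8 CPM (2.51, 1.65 to 3.97).

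Eif4g1, the scaffold that joins cap-binding protein and helicase, had 134 CPM fresh, 253 CPM in high glucose, and 141 and 141 CPM on plate 2. It was called higher in high glucose over fresh cells (1.90, 1.34 to 2.75), although the rows overlapped (79.2 to 195 and 189 to 299.9 CPM). Eif4g2, a relative that lacks the part for binding the cap protein, was at 1313, 1160, 1539 and 1581 CPM, with a ratio of 0.884 (0.784 to 0.998) and overlapping rows, and Eif4g3, the third scaffold gene, at 148 and 128 CPM (0.869, 0.605 to 1.27). Among the counts of the 3 scaffold genes, Eif4g1 held 8.39% fresh, 16.4% in high glucose, and 7.90 and 7.79% on plate 2. The high glucose rows, 12.0 to 18.8%, lay above all rows of the other conditions, which ran from 5.00 to 11.6%. With every cell given equal weight, the high glucose share was 13.7%.

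Of the proteins that hold back the cap-binding protein, Eif4ebp1, an mTORC1 substrate, had 119.7 CPM fresh, 131 CPM in high glucose, and 165 and 174 CPM on plate 2 (high glucose to fresh 1.09, 0.740 to 1.65). Eif4ebp2 and Eif4enif1 stayed under the minimum, at 38.7 and 49.6 CPM and at 49.3 and 46.2 CPM. Eif4ebp3 had 1 count in all cells together. The cap-binding relative Eif4e2 stood at 154.9 and 154 CPM (0.997, 0.705 to 1.43).

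Late initiation factors followed. Eif5, which makes eIF2 hydrolyse its GTP, had 183 CPM fresh and 444 in high glucose, a ratio of 2.43 (1.81 to 3.30), with rows of 139 to 322 and 375 to 566 CPM that did not overlap. Eif6, which keeps the large subunit from joining too early, was at 183 and 327 CPM (1.79, 1.33 to 2.45), but its rows overlapped. Eif5b, the GTPase of subunit joining, was called neither at 327 and 362 CPM (1.10, 0.875 to 1.41). Eif2d, an alternative initiator, had 0 counts fresh, which allows up to 3, and 5, 12 and 15 counts after culture, so no fold is given.

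The elongation factors did not move together. Eef1a1, which delivers aminoacyl-tRNA, was at 4667 CPM fresh, 4573 CPM in high glucose, and 4218 and 3851 CPM on plate 2, with a high glucose to fresh ratio of 0.980 (0.921 to 1.04) and overlapping rows. Per spike-in count the same ratio was 3.01. The median over cells was 0.458% of gene counts fresh and 0.376% in high glucose, where the Eef1a1 share rose with a cell's total counts (rank correlation 0.42). Eef1g, a subunit of the exchange complex that reloads eEF1A, went from 588 to 1441 CPM, with 1207 and 1228 CPM on plate 2. Its fresh rows ended at 806 CPM and the high glucose rows began at 1122 CPM (2.45, 2.08 to 2.90). The cell medians of Eef1g were 0.0509% fresh and 0.114% in high glucose. There its share also rose with a cell's total counts (rank correlation 0.55).

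Of the other exchange subunits, Eef1b2 was called higher at 56.3 and 86.7 CPM with an interval that held 1 (1.54, 0.891 to 2.83), and Eef1d was called neither at 172 and 219.7 CPM (1.27, 0.927 to 1.78). Eef1e1, which sits in the tRNA synthetase complex, was at 98.6 and 113 CPM (1.14, 0.745 to 1.81). Eef2, the translocase, had 1679 CPM fresh, 2155 CPM in high glucose, and 2027 and 1924 CPM on plate 2 (1.28, 1.16 to 1.42), with overlapping rows. Its cell medians were closer, at 0.166% fresh and 0.182% in high glucose. Within high glucose the Eef2 share rose with a cell's total counts (rank correlation 0.48), and deep cells weigh more in a pool. Eif5a, which frees ribosomes stalled at proline runs and carries hypusine, lay at 1939 and 2017 CPM (1.04, 0.945 to 1.15), and its relative Eif5a2 at 56.3 and 59.7 CPM.

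The kinase and methyltransferases that modify elongation factors were all under the minimum, with 7 counts fresh and 80 in high glucose over 5 genes (summed ratio 3.66, 1.70 to 9.39). Eef1akmt1 had 0 counts fresh and 17 in high glucose, and the exact interval of the ratio began at 1.32. Eef2kmt, which methylates eEF2, had 17.6 and 49.6 CPM (2.82, 1.12 to 9.10). Eef1akmt2 had 7.04 CPM fresh, 13.5 CPM in high glucose, and 47.9 and 48.1 CPM on plate 2, and Eef1akmt3 at most 3 counts in a condition. Eef2k, the kinase that stops eEF2, had 0 counts fresh and 4, 2 and 1 counts after culture.

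**Figure D3:**
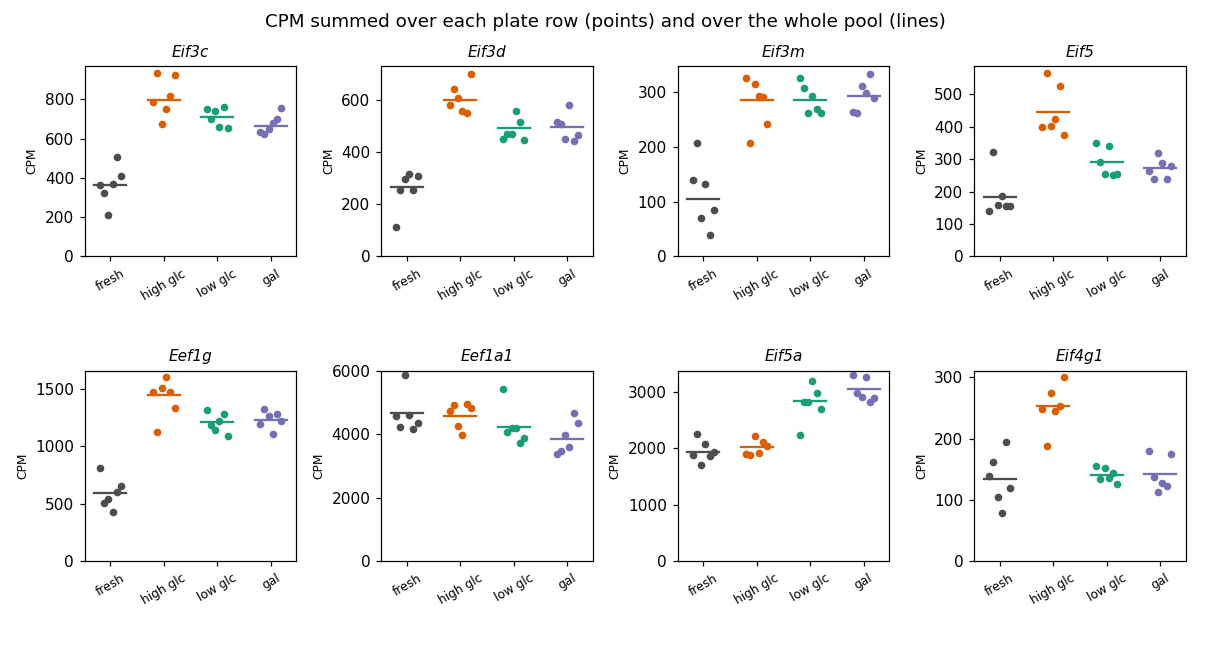
CPM of 8 genes summed over each of the 6 plate rows of a condition (points) and over the whole pool (lines), on linear axes that start at 0. Rows of freshly isolated and high glucose cells do not overlap for Eif3c, Eif3d, Eif3m, Eif5 and Eef1g, they overlap for Eef1a1 and Eif5a, and the high glucose rows of Eif4g1 reach 299.9 CPM, against at most 195 CPM in the other conditions.

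Some other counted rows share most of their own sequence with one of these genes, and the handling of reads that match several rows was not stated. Rows with at least 50 counts that share at least 50% of their 31-base words with a member were found for 10 members. For Eef1a1 these were Gm13456 and Gm26384, with 88.2 to 96.2 copy counts per 100 Eef1a1 counts in the 4 conditions, and with them added the ratio of high glucose to fresh was 0.976. The rows like Eef1g, Gm4366 and Gm5525, held 177 to 190.5 counts per 100 of Eef1g, and the ratio with them was 2.49. With its copy added, Eif3m was at a ratio of 2.99, Eif3e at 2.35, Eif1 at 1.95 with 5 copies, Eef1b2 at 1.45 and Eif4a1 at 1.40. Eif2s2 and Eif2s3x, with their copies, were at 0.641 and 2.30, and Eif3j1 with its near-identical gene Eif3j2 at 1.16. The levels of these genes are therefore uncertain, and Eef1b2 would no longer pass the fold of 1.5.

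Galactose was compared with low glucose within plate 2, where the pools were deepest. None of the 47 members that passed the minimum was called, against 0.125% of 3997 genes called higher and 0.175% called lower. Their ratios ran from 0.825 (Eif3j1, a loosely bound eIF3 subunit) to 1.22 (Eif4ebp2), and their median log2 ratio was 0.03, beside 0.01 over all genes. Intervals left out 1 for 2 members that were higher in galactose and 3 that were lower, where 6.4% and 6.1% of all genes did so. No member had plate rows without overlap, against 0.0751% of genes higher and 0.125% lower.

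The 5 intervals belonged to genes with small ratios. Eif5a was at 2837 CPM in low glucose and 3051 CPM in galactose (1.08, 1.04 to 1.12), and Eif2s1 at 691 and 761 CPM (1.10, 1.02 to 1.19). Eef1a1 was at 4218 and 3851 CPM (0.913, 0.884 to 0.943), Eef2 at 2027 and 1924 CPM (0.949, 0.906 to 0.993), and Eif3j1 at 179.9 and 148 CPM (0.825, 0.702 to 0.969). Rows overlapped for each of the 5; those of Eef1a1 spanned 3738 to 5419 CPM for low glucose and 3380 to 4656 CPM for galactose. Summed eIF3 had a ratio of 0.997 (0.967 to 1.03), summed eIF4 1.03 (0.995 to 1.06) and summed eIF2B 1.03 (0.918 to 1.15), so that shifts larger than these intervals are not seen at this depth.

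Low glucose and galactose lay on another plate than high glucose, so that plate and medium cannot be told apart, and both comparisons use the same high glucose pool. Of 48 members that passed in low glucose against high glucose, 2 were called higher (Eif1b, which passed through its low glucose pool only, and Eef1e1) and 2 lower (Eif4g1 and Eif5), against 8.83% and 9.47% of 4067 genes. In galactose against high glucose 6 of 46 were called higher (Eif1ax, Eif1b, Eif3k, Eif4ebp2, Eif5a and Eef1e1) and 3 lower (Eif3j1, Eif4g1 and Eif5), against 10.7% and 11.2% of all genes that passed; Eif1b and Eif4ebp2 passed through their galactose pool only. Both counts lie near or under the share of all genes. Rows did not overlap for Eif4g2 and Eif5a (higher) and Eif4g1 and Eif5 (lower) in low glucose, against 4.35% and 2.95% of genes, and for 3 members in each direction in galactose, against 5.71% and 5.08%.

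Some of these levels differed between the plates by more than the spread of rows. Eif5a rows were at 1876 to 2216 CPM in high glucose and at 2236 to 3198 CPM in low glucose, with ratios to high glucose of 1.41 (1.33 to 1.49) for low glucose and 1.51 (1.43 to 1.60) for galactose. Eif4g1 stood at ratios of 0.557 (0.463 to 0.671) and 0.558 (0.467 to 0.667), and Eif5 at 0.656 (0.574 to 0.750) and 0.611 (0.536 to 0.697). For both genes the plate 2 levels lay between the freshly isolated and the high glucose level.

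Pairs of related genes also changed their proportion. Of the counts of Eif1 and Eif1b, Eif1b held 6.36% fresh (2.60 to 12.7%), 6.58% in high glucose (4.65 to 8.995%), and 12.5% (10.6 to 14.7%) and 13.5% (11.6 to 15.6%) on plate 2. Eif5a2 held 2.82, 2.88, 1.66 and 1.27% of the counts of both eIF5A genes in that order. The share of Eif1ax among the eIF1A counts was 47.7, 54.3, 62.1 and 62.5%. Rows of these pairs overlapped between plates, and the shift from plate 1 to plate 2 cannot be told apart from the plate.

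Single cells differed in their Eef1a1 counts by more than Poisson counting. The share of Eef1a1 in a cell's gene counts was 0.0451% at the lowest, 0.458% at the median and 1.16% at the highest before culture, and 0, 0.376 and 1.13% after high glucose culture. For low glucose these 3 values were 0.0831, 0.351 and 0.973%, and for galactose 0.0372, 0.338 and 0.825%. The variance was 2.55, 7.97, 12.2 and 10.9 times that of Poisson counts at the same depths in freshly isolated, high glucose, low glucose and galactose cells. After the counting variance was taken off, the coefficient of variation was 34.4, 43.8, 42.7 and 39.0%, beside medians over genes counted at least 1.5 times per cell of 42.1, 38.2, 33.5 and 30.4%. Eif5a was steadier at 26.1, 28.3, 25.7 and 20.5%. The variance of Eef2 was 1.51, 3.45, 4.88 and 4.38 times that of Poisson counts in the 4 conditions. That of Eef1g was 0.973 times in freshly isolated cells, at 1.64 counts per cell, and 2.54, 2.11 and 2.35 times in the 3 cultures. For Eef1d it was 0.936, 0.876 and 0.983 times in the cultures, at 1.73, 4.40 and 5.15 counts per cell. For the same spread this multiple rises with the mean count, so it does not compare genes of unlike depth. Summed eIF3 had a cell median of 0.228% fresh and 0.445, 0.425 and 0.436% after culture. Single cells ran from 0 to 0.524% fresh, 0.193 to 0.920% in high glucose, 0.284 to 0.766% for low glucose and 0.214 to 0.778% for galactose, so that the cells of all 4 conditions overlapped.

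**Figure D4:**
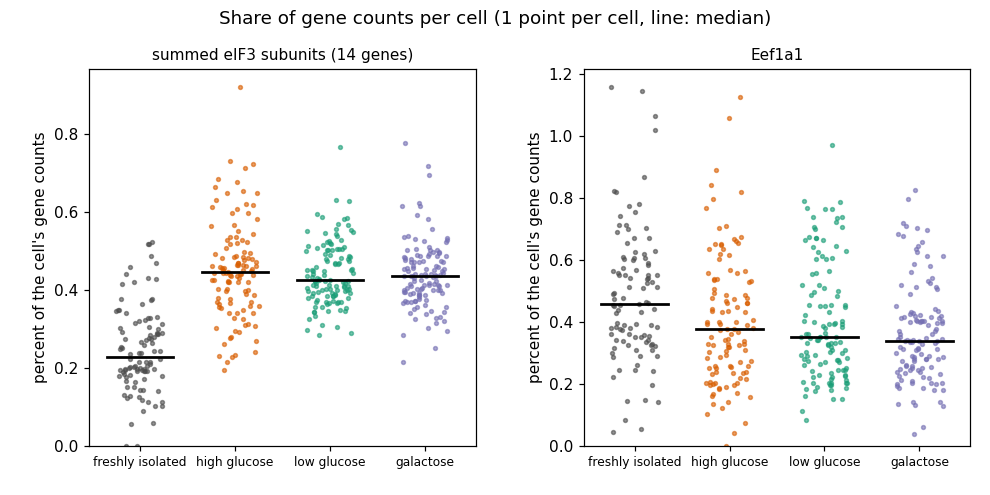
Share of a cell's gene counts from the 14 eIF3 genes (left) and from Eef1a1 (right), 1 point per cell and a line at the median. Cell medians of eIF3 are 0.228% in freshly isolated and 0.425 to 0.445% in cultured cells; those of Eef1a1 go from 0.458% down to 0.338%, with single cells from 0 to 1.16%.

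Across cells of the same condition, Eef1a1 went with some factors and against others. The rank correlation of the Eef1a1 share with that of Eef2 was 0.24 over 102 freshly isolated cells, 0.34 over 113 high glucose cells, 0.55 over 120 low glucose cells and 0.51 over 121 galactose cells. With Eef1g it was 0.18, 0.32, 0.50 and 0.51. With Eif5a it was negative throughout, at -0.33, -0.10, -0.47 and -0.53, and in low glucose and galactose also with Eif2s1 (-0.40 and -0.44) and Eif4g2 (-0.41 and -0.32). For scale, the middle 90% of 2073 genes ran from -0.35 to 0.47 in low glucose and that of 2493 genes from -0.32 to 0.42 in galactose, and Eef2 and Eif5a lay outside both ranges. In high glucose the range over 1030 genes was -0.23 to 0.39 and held both genes. In freshly isolated cells the range over 265 genes was -0.29 to 0.24, with Eef2 inside it and Eif5a outside.

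These points share a library, and cells differ in depth, which moved with Eef1a1: its rank correlation with a cell's total counts was -0.21, 0.42, 0.27 and 0.19 in the same order of conditions, and with gene counts per spike-in count -0.24, 0.47, 0.51 and 0.42. After every cell was thinned to 5000 counts, leaving 109 low glucose and 110 galactose cells, the correlation with Eef2 was 0.42 in both, that with Eif5a -0.37 and -0.36, and that with Eif2s1 -0.22 and -0.38. With Eef1g it was then 0.33 and 0.35, and with Eif4g2 -0.19 and -0.36. The middle 90% of genes after thinning ran from -0.28 to 0.355 for low glucose, which held Eef1g, Eif2s1 and Eif4g2, and from -0.26 to 0.29 for galactose, which held none of the 5. In high glucose, thinning left 75 cells and a range of -0.27 to 0.36. Eef2 then lay outside it at 0.39, unlike before thinning. Eif5a (-0.13), Eef1g (0.16), Eif2s1 (-0.06) and Eif4g2 (-0.18) lay inside. Shares of a single total are not independent of each other. The summed share of 76 ribosomal protein genes went with Eef1a1 at 0.45, 0.50, 0.67 and 0.62, and the summed mitochondrial share at -0.16, -0.24, -0.40 and -0.37. The part of these measures in the correlations was not tested, and they are a description of these cells.

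**Figure D5:**
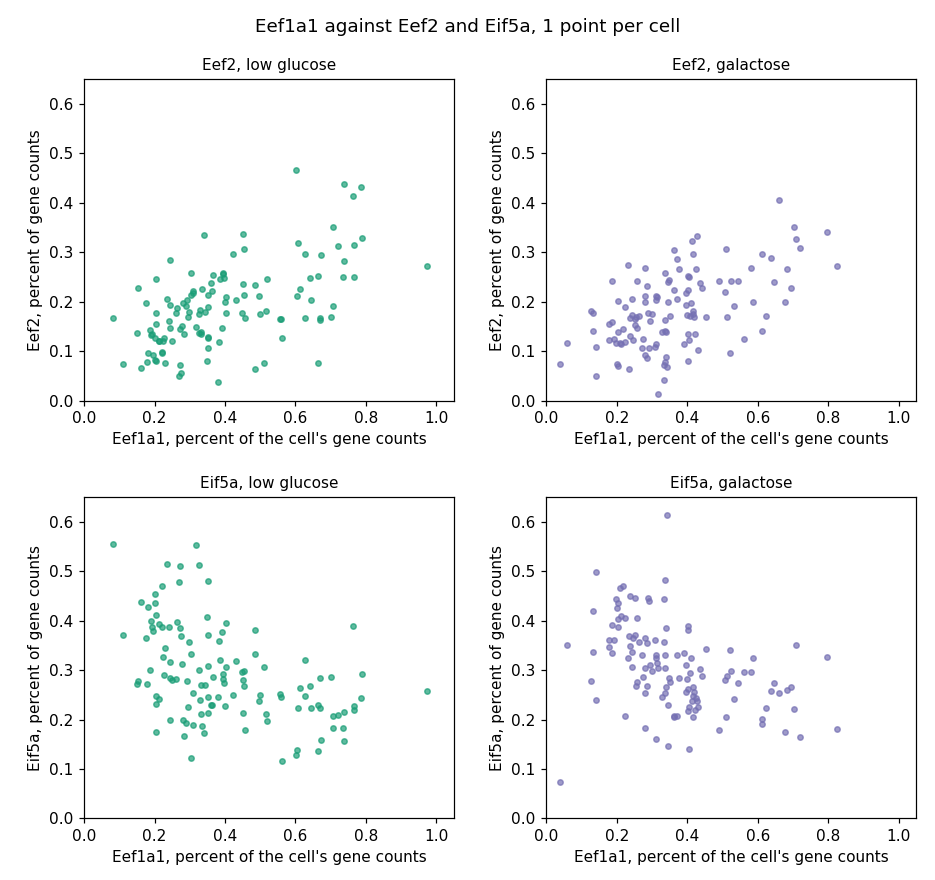
Share of Eef1a1 (x axis) against Eef2 (top) and Eif5a (bottom) in low glucose (left) and galactose cells (right), in percent of a cell's gene counts, 1 point per cell. Rank correlations are 0.55 and 0.51 for Eef2 and -0.47 and -0.53 for Eif5a.

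Other genes of protein synthesis, from lists chosen with earlier results of these data known, were counted in the same way. Of 18 cytosolic aminoacyl-tRNA synthetase and scaffold genes that passed the minimum in high glucose against freshly isolated cells, 9 were called higher and 0 lower, against 33.9% and 20.1% of all genes, and 2 of the 9 (Farsa and Mars) passed through the high glucose pool only. Among the 9 were Rars, the arginyl-tRNA synthetase, at 52.8 and 186 CPM (3.52, 2.07 to 6.43) and Sars, the seryl-tRNA synthetase, at 88.0 and 264 CPM (2.996, 1.98 to 4.73). The 11 genes of cap and poly(A) partners that passed divided into 3 higher and 3 lower, beside the same 33.9% and 20.1% of all genes. Of these, Denr, Ncbp2 and Mknk2 passed through 1 pool only, and nothing is read from their calls. Among the 8 with both pools at or above the minimum, 1 was higher and 2 lower, beside 26.6% and 16.4% of 2914 genes. Pabpc1, the cytoplasmic poly(A)-binding protein that contacts eIF4G, was higher at 1200 and 1861 CPM (1.55, 1.38 to 1.75). Ppp1r15a, the phosphatase subunit that reverses eIF2 phosphorylation, was lower at 1545 and 730.05 CPM (0.472, 0.418 to 0.535). Mknk2, the kinase of the cap-binding protein, was at 162 and 41.7 CPM (0.257, 0.162 to 0.406). It passed through the freshly isolated pool only, so its ratio could lie below 1 only.

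Of 4 termination and recycling genes that passed, Abce1 and Hbs1l were called higher and 0 lower, too few to set against the 33.9% of all genes. Abce1, which splits ribosomes after termination, was at 148 and 278 CPM (1.88, 1.35 to 2.68). Of 20 genes of mTORC1 signalling found, 5 passed and 2 of these were called higher, a share near that of all genes: Rragc at 102 and 234 CPM (2.30, 1.55 to 3.51), and Lamtor3, which passed through the high glucose pool only. Of 9 mitochondrial translation factors, 2 passed, both through the high glucose pool only, so that nothing is read from their calls: Tufm was at 17.6 and 94.6 CPM (5.38, 2.22 to 17.0) and Gfm1 at 42.2 and 78.9 CPM (1.87, 1.00 to 3.79). No gene for the modification of eIF5A and eEF2 passed; Dhps, which starts hypusine synthesis, was at 17.6 and 46.2 CPM. In galactose against low glucose 0 genes were called in the 5 lists with genes that passed, where 0.125% of all genes were called higher and 0.175% lower.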

How the data were processed

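The values deposited by the authors are raw counts for each gene in each well, not normalized: they are whole numbers whose totals differ between wells. Per the labels, bases 1 to 6 of the first read were a molecular tag, but whether counts were collapsed by it, and which aligner, counter, build and annotation were used, was not given in the sources used here. edgeR is the 1 tool that the submitters' processing notes list, with neither version nor role. The deposited well sheet gave the condition of each of 457 wells. Wells with at least 500 gene counts and 250 genes were kept, 456 in all. No doublet caller was run. Of 21216 identifiers, 21132 (99.6%) received a symbol from GENCODE M21. Counts were pooled per condition and divided by the pool total. Intervals were exact Clopper-Pearson or Poisson at 95%, log2 ratios used a pseudocount of 1 CPM, and 0 counts used a floor of 3 counts per pool. Medians of log2 ratios and shares of cells were computed with Python 3.11.15 (numpy 2.4.6, pandas 2.3.3, scipy 1.17.1), TMM factors with edgeR 4.0.16 in R 4.3.3, and plots with matplotlib 3.10.9. The computation of ratios and calls was tested on simulated data.

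The named members were, per comparison within a plate, up to 15 called higher and 15 called lower by the interval bound nearest 1, the member with most counts in each factor, and a short list of main factors. Of the related lists, genes with most counts or with the bound farthest from 1 were named. Other members were named to account for the whole set or as part of a count, after their values were seen. The members and lists were chosen with earlier results of these data known. Eef1a2, Eif4a2, Eif4e and Eif2ak3 were not analysed here. The alternatives were other scalings (TMM, median-of-ratios, spike-in, totals without mitochondrial or ribosomal protein genes or over protein-coding genes), equal weight per cell, well minimums, thinning to 1000 counts, a correction for tag collisions, other expression minimums, a fold of 2, calls that also need an interval leaving out 1, and a pseudocount of 10 CPM. RefSeq start windows came from a table for GRCm38.p6.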

Additional observations from a re-analysis of the deposited data

How the results depend on the processing

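With 1 library per condition, all results rest on single pools, and 15 members were too shallow to call between high glucose and freshly isolated cells. No paired analysis was possible because each condition had 1 library. Of the values recomputed for comparisons, shares and paralog proportions, 165 kept their size and 31 moved; of those for single members and factors, 600 kept it, 71 moved and 3 reversed. The cause was not tested. In high glucose against freshly isolated cells, the 22 higher and 3 lower members became 44 and 0 under spike-in scaling (median log2 ratio 2.17), and 12 and 0 at a fold of 2. The lower count was 5 with median-of-ratios factors, 0 over protein-coding totals, 1 after thinning and 5 with no minimum level. Spike-in scaling moves all genes alike, by 1.59 (log2) at their median, and the log2 ratios of the 3 lower members, Eif1a, Eif2ak1 and Eif2s2, thereby reversed to 0.93, 1.00 and 1.02. In galactose against low glucose, thinning gave 3 higher and 4 lower. In low glucose against high glucose, the counts higher and lower were 6 and 1 with TMM factors, 1 and 5 under spike-in scaling and 10 and 5 after thinning, with 1 lower under median-of-ratios factors. In galactose against high glucose they were 2 and 6 under spike-in scaling (median -0.22) and 11 and 7 after thinning. The members' share without mitochondrial genes was 1.873% fresh, 2.345% in high glucose, and 2.394 and 2.390% for low glucose and galactose. With equal weight per cell it was 2.205% in high glucose and 2.323% in galactose, and the high glucose shares of Eif4g1 and Eif4g2 were 13.7% and 78.3%. Alternatives chosen after seeing the data were the summed eIF3 ratio under each scaling, rows that share sequence with Eef1a1, thinning before correlations, and dropping 22 marker wells, which changed the calls of single members named in the report.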
